A study of Rattus norvegicus with 4 samples.

Results

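The genes described here are 7 that the glucocorticoid receptor is known to switch on in many tissues: Tsc22d3, Fkbp5, Sgk1, Ddit4, Klf9, Per1 and Zbtb16. They were taken by symbol from the count matrices, and each matched 1 feature, so they make up 7 of 22118 gene symbols. The question was whether cells other than T cells respond to the hydrocortisone in the fluid of perfused livers. The 4 libraries come from livers of Lewis rats, an inbred strain, with 1 library for each of 4 groups. The naive liver was untreated and the CS liver was held in cold storage for 4 h at 4 °C. The NEVLP2 liver was perfused ex vivo for 4 h at 37 °C, and the NEVLPcty liver likewise, with 2 added cytokines, IL-10 and TGF-β. Per the labels, the perfusate contained 65 mL of William's E medium, 30 mL of leukoreduced Lewis red cells, human albumin, heparin, antibiotics, pyruvate, glutamine, 15 mg papaverine, 1 mg insulin and 1.25 mg hydrocortisone. The labels attach that recipe to all 4 samples; it is read here as that of the 2 perfused livers, and the meaning of CS and NEVLPcty is taken from the series description. The digit in NEVLP2, the storage fluid of the CS liver and the animals' age and sex are not stated in the sources at hand. No liver was perfused without hydrocortisone, so the steroid, warmth, perfusion and the other additives cannot be told apart, and each library is 1 liver, so neither can the animal or the preparation.

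Glucocorticoids are steroid hormones of the adrenal cortex. They enter cells and bind a receptor held ready by heat shock protein chaperones, and the loaded receptor moves to the nucleus, where it binds DNA as a pair and raises some genes while it restrains inflammatory ones. Hydrocortisone is the drug name of cortisol, whereas the rat's own main glucocorticoid is corticosterone, so a liver taken from a living rat has already met a ligand of the same receptor. In liver the hormone is known for gluconeogenic and amino acid enzymes in hepatocytes and for damping of cytokine genes in macrophages and endothelium. None of the 7 genes answers to glucocorticoids alone: Ddit4 also answers to low oxygen and to amino acid stress, Sgk1 to serum and osmotic stress, and Per1 to cyclic AMP and the time of day.

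Reference start regions of Tsc22d3, Klf9, Ddit4 and Fkbp5 are shown here so that their letters can be read beside the levels. For Tsc22d3 only the window of 3 that holds a marked motif is shown. Each window runs from 250 bases before to 50 bases after an annotated start, 5′ to 3′ on the gene's strand, and comes from RefSeq on GRCr8. Capitals mark letters of the cyclic AMP response half-element TGACG and of the hypoxia response core ACGTG, searched on both strands; in Klf9 the 2 motifs overlap, and Fkbp5, all in lower case, holds neither.
Tsc22d3, window 3 of 3, chrX:109009985-109010284, minus strand: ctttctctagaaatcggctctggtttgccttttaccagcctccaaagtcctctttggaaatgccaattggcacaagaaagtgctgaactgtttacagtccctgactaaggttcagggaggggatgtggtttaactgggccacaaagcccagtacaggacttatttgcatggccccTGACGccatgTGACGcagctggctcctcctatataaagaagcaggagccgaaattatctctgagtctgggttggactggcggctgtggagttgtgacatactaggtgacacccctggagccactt
Klf9, chr1:230126396-230126695, plus strand: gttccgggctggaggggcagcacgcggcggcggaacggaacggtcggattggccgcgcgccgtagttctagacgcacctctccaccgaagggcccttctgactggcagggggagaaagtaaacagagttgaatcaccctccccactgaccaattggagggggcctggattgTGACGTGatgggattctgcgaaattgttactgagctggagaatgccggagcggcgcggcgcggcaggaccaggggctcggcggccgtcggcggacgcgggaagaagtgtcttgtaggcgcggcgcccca
Ddit4, chr20:28436988-28437287, minus strand: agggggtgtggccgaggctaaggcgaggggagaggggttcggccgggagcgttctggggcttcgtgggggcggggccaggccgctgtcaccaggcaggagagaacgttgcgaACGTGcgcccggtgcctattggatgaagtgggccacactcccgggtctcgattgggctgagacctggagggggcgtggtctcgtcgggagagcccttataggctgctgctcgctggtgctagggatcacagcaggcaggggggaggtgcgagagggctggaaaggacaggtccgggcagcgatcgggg
Fkbp5, chr20:6543506-6543805, minus strand: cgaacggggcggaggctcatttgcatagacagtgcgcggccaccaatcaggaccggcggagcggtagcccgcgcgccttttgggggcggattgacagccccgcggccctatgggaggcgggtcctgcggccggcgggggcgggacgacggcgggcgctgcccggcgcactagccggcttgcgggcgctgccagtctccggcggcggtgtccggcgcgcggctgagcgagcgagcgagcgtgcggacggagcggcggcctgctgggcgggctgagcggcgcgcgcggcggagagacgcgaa

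The full receptor element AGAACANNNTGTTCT was in 0 of the 10 windows of the 6 members that have one, and in 5 of 33469 windows of all genes (0.0149%). Its half-site AGAACA was likewise in 0 of those 10 and in 20.7% of all windows. TGACG was in 2 of the 10 windows, against 21.2% of all windows. It occurred in Tsc22d3, at 75 and 65 bases before the start (-75 and -65), and in Klf9 at -79. ACGTG was also in 2 of the 10, in Ddit4 at -138 and in Klf9 at -77, against 19.3% of all windows. Both shares are thus near those of all windows. The 3 windows of Sgk1 and that of Per1, not shown, held neither motif. The E-box CACGTG was in none of the 10 and in 6.42% of all. These windows hold 300 bases each, and the letters say nothing about sites farther away. Zbtb16 had no entry in the sequence table.

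After filters on genes, UMIs and mitochondrial share and removal of called doublets, 3297 naive, 10472 CS, 9978 NEVLP2 and 11616 NEVLPcty cells were retained. Pairs of libraries shared between 7 and 32 cell barcodes (0.212 to 0.455% of the smaller library). Clustering without any of the listed genes gave 29 clusters, and 9 marker-named classes had at least 20 cells in every library, which was the minimum for a comparison. The suffix -like marks that a name rests on transcripts only. Summed over a class, a UMI was found in each library for all or nearly all of its measured markers. That was at least 9 of 10 endothelial, 9 of 9 hepatocyte, 8 of 8 Kupffer, 7 of 7 monocyte or macrophage and 8 of 8 conventional dendritic markers. It was 9 of 9 NK, 8 of 8 T, 7 of 8 plasmacytoid dendritic and 7 of 7 B markers. Such counts do not set a class apart, since large sums hold other lists too. Kupffer-like cells of NEVLP2 also had 10 of 10 endothelial and 9 of 9 hepatocyte markers. Naive endothelial-like cells numbered only 28, and naive Kupffer-like cells 92 with a median of 736 UMIs, against medians of 12927 to 16711 in the other libraries. NK-like, T-like, plasmacytoid dendritic-like and B-like cells came each mainly from 1 cluster in every library (7, 14, 16 and 17). In the other 5 classes the main cluster of CS cells differed from that of the perfused cells, and so did that of naive cells except in the Kupffer-like class; these clusters are named beside the values.

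A level is given in CPM, the counts of a gene scaled to 1e6 UMIs of its class and library, with a 95% Poisson interval that covers counting error only. With 1 library per group there is no test. A gene was counted as higher in a class where the lower perfused library lay at least 2-fold above the higher of naive and CS, and as lower in the mirrored case, provided it had at least 20 counts over the 4 libraries. Of 63 pairs of a member and a class, 55 had those counts; 5 were higher and 11 lower, and without T-like cells 5 and 10 of 49.

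The share of all genes that passed the same rule differed widely between classes and has to be read beside those counts. In endothelial-like cells 1 of 7 members was higher and 3 were lower, where 3.33% of all genes were higher and 20.8% lower. In hepatocyte-like cells it was 1 higher and 0 lower of 6, against 13.9% and 1.27% of all genes. In Kupffer-like cells it was 0 higher and 1 lower of 6, against 3.36% and 13.6%, and in monocyte or macrophage-like cells 0 and 2 of 7, against 3.96% and 16.1%. In conventional dendritic-like cells 1 was higher and 3 lower of 7, against 3.57% and 18.6% of all genes. In NK-like cells it was 1 and 0 of 6, against 4.29% and 6.21%. In plasmacytoid dendritic-like cells it was 1 and 0 of 5, against 3.52% and 6.43%. In B-like cells it was 0 and 1 of 5, against 2.44% and 4.18%. In T-like cells, for comparison, it was 0 and 1 of 6, against 2.46% and 3.55%. The members thus did not lie higher together in any class after perfusion with hydrocortisone, and the median log2 difference over the members measured was between -1.58 and 0.30.

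**Figure D1:**
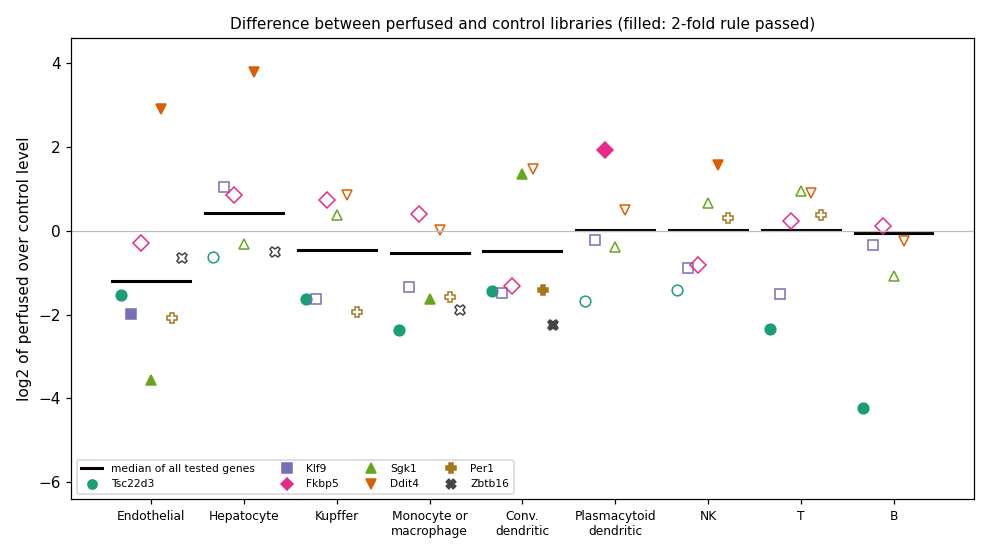
Each point is the log2 of the geometric mean level of the 2 perfused libraries over that of the 2 controls for 1 gene in 1 cell class (a level under 3 counts set to 3 counts); filled points passed the 2-fold rule, and black bars give the median over all tested genes of the class. Tsc22d3 lies below the bar in all 9 classes, from -4.24 in B-like to -0.63 in hepatocyte-like cells, while Ddit4 lies highest in endothelial-like and hepatocyte-like cells at 2.90 and 3.79.

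Tsc22d3 encodes GILZ, a leucine zipper protein that binds NF-kB and AP-1 and is among the most widely induced glucocorticoid targets. It lay lower, not higher, in the perfused livers, and passed the rule in 6 of 9 classes: endothelial-like, Kupffer-like, monocyte or macrophage-like, conventional dendritic-like, T-like and B-like cells. Over all retained cells its levels in naive, CS, NEVLP2 and NEVLPcty were 239, 235, 53.9 and 67.7 CPM. These pooled levels were alike in the 2 controls and low in the 2 perfused libraries, but they mix classes in unlike shares. Endothelial-like cells, for instance, made up 0.849, 39.2, 5.52 and 55% of retained cells in that order. Within classes the controls differed more, with CS over naive from 0.804-fold in NK-like to 2.39-fold in hepatocyte-like cells. The endothelial-like and conventional dendritic-like calls were lost with median of ratios scaling, where the log2 differences went from -1.54 to -0.75 and from -1.44 to -0.92, so that 4 classes passed.

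B-like cells showed the widest gap. Tsc22d3 stood at 381 CPM (344 to 420) in naive, 471 (441 to 502) in CS, 13.8 (7.12 to 24.1) in NEVLP2 and 36.5 (19.9 to 61.2) in NEVLPcty. The perfused levels rest on 12 and 14 counts from 102 and 48 cells. The lower control lay 10.4-fold (6.15 to 19.3) above the higher perfused library, and the log2 difference of -4.24 was under that of all but 0.0244% of the 8189 genes measured in this class. Thinned to 2000 UMIs per cell, a Tsc22d3 UMI was found in 46.6, 58.2, 4.08 and 8.51% of B-like cells in naive, CS, NEVLP2 and NEVLPcty (unthinned 71.9, 79, 10.8 and 20.8%). Hepatocyte-like cells, the class with the lowest Tsc22d3 in naive and CS, held it in 4.84, 8.37, 2.61 and 6.21% after thinning, so in perfused livers the B-like share was near that low level. Median depths were 4459 to 5841 UMIs in B-like and 1917.5 to 2971 in hepatocyte-like cells.

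In monocyte or macrophage-like cells the 4 levels were 300 CPM (285 to 315), 348 (333 to 362), 64.5 (59 to 70.4) and 61 (49.6 to 74.4), in the order naive, CS, NEVLP2, NEVLPcty. Controls and perfused libraries lay 4.65-fold or more apart, and 6.67% of all genes in this class lay below the log2 difference of -2.36. These cells came from clusters 19 and 20 in the controls and from cluster 12 in the perfused livers, and in no cluster did a control and a perfused library each have 20 cells (cluster 19 held 14 NEVLP2 and 7 NEVLPcty cells), so the gap is also one between clusters. Kupffer markers made up 0.675, 2.35, 0.0376 and 0.108% of the UMIs of this class in naive, CS, NEVLP2 and NEVLPcty, and its own markers 1.86, 1.01, 0.728 and 0.701%; their part in the result was not tested. With cells classed by their own transcripts the log2 difference was -1.76, against -2.36.

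Kupffer-like cells, the resident macrophages, had 190 CPM (156 to 229) in naive, 193 (185 to 201) in CS, 57.7 (53.4 to 62.2) in NEVLP2 and 65.8 (59.8 to 72.3) in NEVLPcty. The controls lay at least 2.89-fold (2.32 to 3.57) above the perfused libraries. The log2 difference was -1.64, and 15.4% of all genes in this class lay below it. Of the 110 naive counts, 103 came from the 32 cells in cluster 13, the cluster of nearly all CS cells, while the perfused cells sat in cluster 9. The 60 naive cells in cluster 9 held 7 counts, a level of 114 CPM (45.7 to 234), whose interval takes in both perfused levels of that cluster, 57.7 and 62.8. The 8 Kupffer markers together made up 5.98, 6.84, 2.98 and 2.76% of the UMIs in naive, CS, NEVLP2 and NEVLPcty; their part in the Tsc22d3 difference was not tested.

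Conventional dendritic-like cells allow a comparison within 1 cluster. For the whole class Tsc22d3 was 167 CPM (155 to 179), 227 (216 to 238), 72 (67.4 to 76.9) and 71.2 (66.2 to 76.5) in naive, CS, NEVLP2 and NEVLPcty. The log2 difference was -1.44, and 20.4% of all genes in this class lay below it. Clusters 22 and 18 held most control cells, and clusters 15 and 18 most perfused ones. Within cluster 18, with 77, 160, 200 and 142 cells, the levels were 194, 175, 88.3 and 90.7 CPM. The controls again lay above both perfused libraries there, by somewhat less than 2-fold at the nearest pair. Within cluster 15 the 27 naive cells had 79.4 CPM (46.2 to 127), against 59.9 and 63.8 in the perfused libraries, so that in this cluster naive and perfused intervals overlapped. The class's own markers made up 0.107, 0.13, 0.211 and 0.0565% of its UMIs in naive, CS, NEVLP2 and NEVLPcty. Monocyte or macrophage markers made up 0.549, 0.416, 0.163 and 0.236%. Their part in the calls of this class was not tested.

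Endothelial-like cells had 181 CPM (124 to 256) from 32 naive counts, 217 (212 to 223) in CS, 70.9 (61.4 to 81.3) in NEVLP2 and 66.1 (63.6 to 68.7) in NEVLPcty. The log2 difference was -1.54, and 41.3% of all genes in this class lay below it, so among endothelial-like genes the shift of Tsc22d3 was an ordinary one. Control cells were in cluster 1 and perfused cells in clusters 8 and 0. The 29 NEVLPcty cells that fell into cluster 1 had 161 CPM (101 to 243), near the control level.

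T-like cells had the highest control levels of the 9 classes, 529 CPM (505 to 554) in naive and 678 (631 to 727) in CS, and 84.5 (70.4 to 101) in NEVLP2 and 163 (139 to 191) in NEVLPcty. The nearest pair differed by 3.25-fold (2.76 to 3.84). The log2 difference was -2.35, and 0.483% of all genes in this class lay below it. The lower level was therefore not a property of T cells only, and 5 of the 6 classes past the rule were other cells.

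In the remaining 3 classes the groups did not separate by 2-fold. NK-like cells had 314 CPM (288 to 343), 253 (228 to 279), 70.9 (59.1 to 84.5) and 159 (144 to 176), with both perfused libraries below both controls. Plasmacytoid dendritic-like cells had 75 (61.3 to 90.8), 113 (100 to 127), 13.4 (10.2 to 17.3) and 61.9 (47.1 to 79.9), and the naive and NEVLPcty intervals overlapped. Hepatocyte-like cells had 21.4 (16.8 to 27), 51.2 (42.1 to 61.7), 17.7 (12.8 to 23.9) and 25.9 (20.9 to 31.9), with the groups interleaved. Neutrophil-like cells were too few in CS and NEVLPcty for a comparison (19 and 13 cells). There Tsc22d3 was 628 CPM (522 to 749) in 76 naive cells and 40.7 (26.1 to 60.6) in 211 NEVLP2 cells.

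Of the perfused livers, the one without added cytokines had the lower Tsc22d3 level in lymphoid and plasmacytoid dendritic-like cells. NEVLPcty exceeded NEVLP2 by 2.25-fold (1.83 to 2.77) in NK-like, 1.93-fold (1.52 to 2.46) in T-like, 2.65-fold (1.14 to 6.26) in B-like and 4.62-fold (3.16 to 6.74) in plasmacytoid dendritic-like cells. In endothelial-like cells the ratio was 0.932 (0.808 to 1.08), in monocyte or macrophage-like cells 0.947 (0.754 to 1.18) and in conventional dendritic-like cells 0.988 (0.896 to 1.09), each interval taking in 1. Kupffer-like and hepatocyte-like cells had ratios of 1.14 (1.01 to 1.29) and 1.46 (1.01 to 2.15). Between the controls, CS exceeded naive by 1.02-fold (0.839 to 1.24) in Kupffer-like to 2.39-fold (1.76 to 3.26) in hepatocyte-like cells, and in NK-like cells it was 1.24-fold (1.09 to 1.42) lower.

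**Figure D2:**
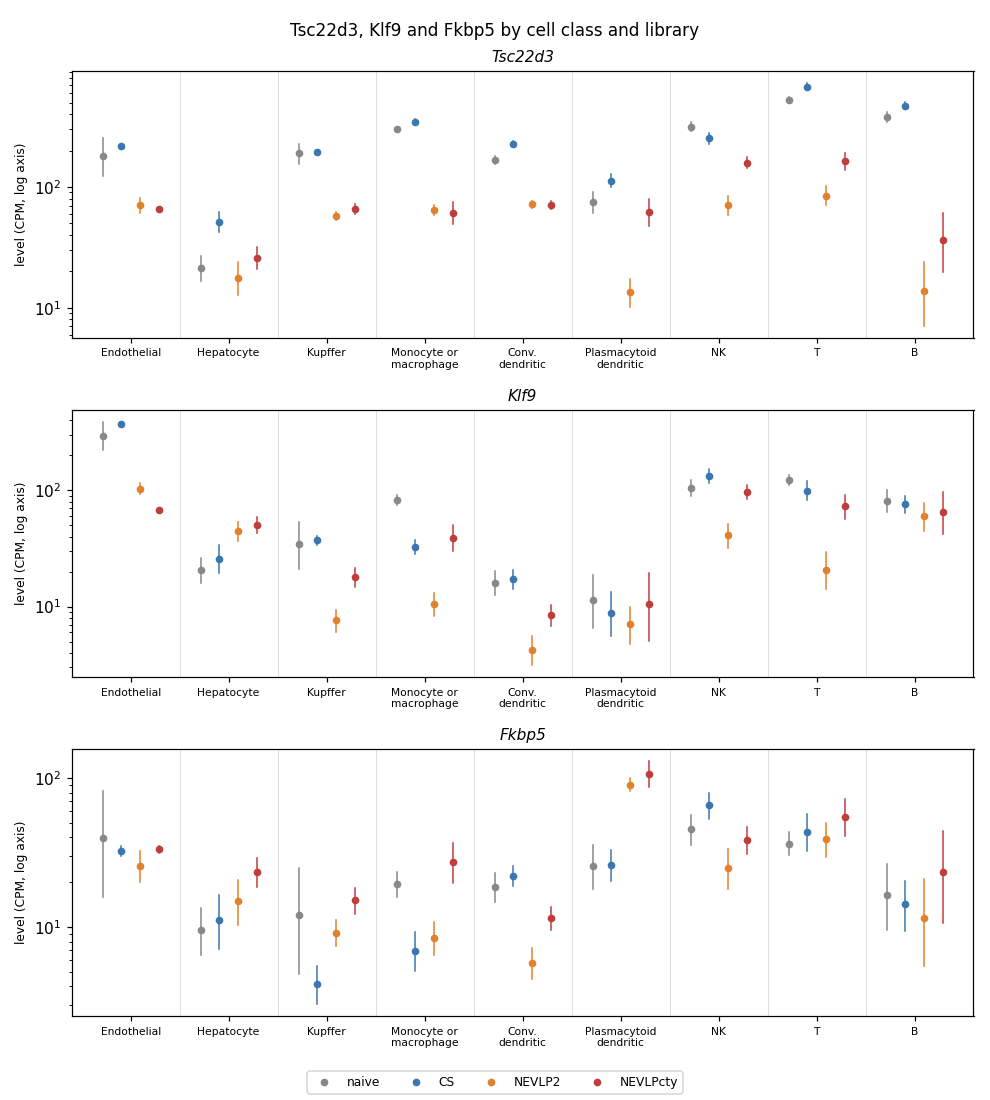
Levels of Tsc22d3, Klf9 and Fkbp5 in CPM on log axes by cell class, with 1 point per library and 95% Poisson intervals as bars. Tsc22d3 separates both controls from both perfused libraries most clearly in B-like cells (381 and 471 against 13.8 and 36.5 CPM), and Fkbp5 stands higher in both perfused libraries only in plasmacytoid dendritic-like cells by the 2-fold rule.

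Fkbp5 encodes a chaperone partner that lowers the receptor's affinity for hormone, and so forms a short feedback loop on the receptor. It passed the rule in 1 class, plasmacytoid dendritic-like cells, where it lay higher in perfused livers. Its level there was 25.7 CPM (36 counts) in naive, 26.2 (68 counts) in CS, 90.5 (398 counts) in NEVLP2 and 107 (102 counts) in NEVLPcty. Both controls were alike and both perfused libraries were high, by 3.45-fold (2.66 to 4.54) at the nearest pair. After thinning, 7.32 and 3.38% of control cells and 18.4 and 15.5% of perfused cells held an Fkbp5 UMI (unthinned 32.1, 23, 60.7 and 66.2%). All 4 libraries of this class came from cluster 16, and 97.8% of genes in it had a smaller log2 difference than the 1.92 of Fkbp5, which was 1.21 with cells thinned to 1000 UMIs. In B-like cells of the same libraries, as a class with low Fkbp5, the thinned shares were 3.01, 2.56, 4.08 and 4.26%. Median depths before thinning were 13116 to 17466 UMIs in plasmacytoid dendritic-like and 4459 to 5841 in B-like cells.

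Elsewhere Fkbp5 did not separate the groups by the rule. In endothelial-like cells it was 39.6 CPM from 7 naive counts, 32.5 in CS, 25.6 in NEVLP2 and 33.4 in NEVLPcty, so that the 4 libraries overlapped. In hepatocyte-like cells both perfused levels, 14.9 and 23.4 CPM, lay above 9.52 in naive and 11.1 in CS, by 1.34-fold at the nearest pair. Conventional dendritic-like cells went the other way, at 18.6 and 22.2 CPM in the controls against 5.7 and 11.5. Over all retained cells, which mix the classes in unlike shares, the level was 21.4, 21.6, 20.8 and 29 CPM.

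Sgk1 encodes a kinase, named for its induction by serum and glucocorticoids, that acts on ion channels and FOXO factors. Its levels took opposite directions in different classes: lower after perfusion in endothelial-like and monocyte or macrophage-like cells and higher in conventional dendritic-like cells. In endothelial-like cells it was 1670 CPM (1485 to 1871) in naive, 1206 (1192 to 1220) in CS, 112 (99.6 to 125) in NEVLP2 and 130 (127 to 134) in NEVLPcty. The gap was 9.26-fold (8.99 to 9.54) at the nearest pair, the log2 difference was -3.56, and 3.09% of all genes in the class lay below it. A Sgk1 UMI was found in 92.9, 84.8, 14.8 and 17.9% of thinned endothelial-like cells (unthinned 100, 96.1, 28.9 and 35.8%). Hepatocyte-like cells held it in 1.84, 7.44, 1.9 and 5.12% after thinning, from median depths of 1917.5 to 2971 UMIs against 4979 to 5849 in endothelial-like cells.

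The endothelial-like difference was also one between clusters. Cluster 1 had 1670 CPM in 28 naive and 1206 in 4103 CS cells, and the 29 NEVLPcty cells in it had 912 (759 to 1087). In clusters 8 and 0 the perfused libraries had between 90.9 and 144 CPM. The few NEVLPcty cells grouped with the controls thus lay below CS but far above the other perfused cells. Cells enter a cluster by likeness of their transcripts, and clusters 8 and 0 held almost no control cells. Cluster and library can therefore not be told apart here.

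In monocyte or macrophage-like cells Sgk1 was 48 CPM (42.3 to 54.2), 57 (51.3 to 63.1), 15.9 (13.2 to 19) and 18.1 (12.1 to 25.9) in naive, CS, NEVLP2 and NEVLPcty. The controls differed by cluster, at 27.7 and 30.3 CPM in cluster 19 and 100 and 64.2 in cluster 20, so the class value depends on their mix. Cluster 12, with the perfused cells, had 15.3 and 16. The log2 difference of -1.63 became -0.54 with cells classed by their own transcripts and -0.91 with the listed genes kept in the clustering. In conventional dendritic-like cells the order was reversed, at 35.2 CPM (29.9 to 41.2), 39 (34.5 to 43.9), 113 (107 to 119) and 78.8 (73.6 to 84.3), with NEVLP2 highest and the nearest pair only 2.02-fold (1.76 to 2.32) apart. Within cluster 18 it was 45.4, 33.5, 154 and 76 CPM, again with both perfused libraries above both controls. Within cluster 15, however, the 27 naive cells had 79.4 CPM (46.2 to 127), level with 85.8 and 77.7 in the perfused libraries. The log2 difference of the class was 1.35 from summed counts, which weight deep cells more, and 0.51 from the mean of per-cell CPM.

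Ddit4 encodes an inhibitor of mTOR signalling. It lay higher in both perfused libraries in endothelial-like, hepatocyte-like and NK-like cells, and lower in none of the 9 classes by the rule. In endothelial-like cells its level was 62.3 CPM (31.1 to 111) in naive, 111 in CS, 907 (872 to 943) in NEVLP2 and 423 (416 to 429) in NEVLPcty. The naive value rests on 11 counts. The nearest pair was 3.8-fold (3.65 to 3.96) apart, and 99.1% of genes in the class had a smaller log2 difference. Control cells sat in cluster 1, NEVLP2 cells mostly in cluster 8 and NEVLPcty cells mostly in cluster 0. NEVLP2 and NEVLPcty had 986 and 535 CPM in cluster 8 and 712 and 406 in cluster 0. The 29 NEVLPcty cells in cluster 1 had 212 (142 to 304), above CS in the same cluster.

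In hepatocyte-like cells Ddit4 was 2.68 CPM (9 counts) in naive, 16.2 (35 counts) in CS, 63.1 (153 counts) in NEVLP2 and 130 (452 counts) in NEVLPcty. Each library lay above the one before, with 3.91-fold (2.69 to 5.82) between CS and NEVLP2. Cluster 10 held most perfused and cluster 3 most control cells. Within cluster 3 alone the levels were 2.68, 16.2, 43.9 and 109 CPM, in the same order. After thinning a Ddit4 UMI was found in 0.334, 2.09, 9.03 and 17.4% of hepatocyte-like cells (unthinned 0.873, 3.76, 15.1 and 24%). In Kupffer-like cells, the compared class with the lowest Ddit4 level in both perfused libraries, it was 3.12, 3.88, 4.62 and 7.81%. In the controls Kupffer-like cells were above hepatocyte-like ones, at 17.3 and 28.3 CPM. Naive Kupffer-like cells had a median of 736 UMIs, so thinning left most of them out.

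NK-like cells had 34.8 CPM (26.3 to 45.2), 69.7 (57.1 to 84.3), 141 (124 to 159) and 151 (136 to 167). CS lay 2-fold (1.44 to 2.82) above naive, and NEVLP2 only 2.02-fold (1.6 to 2.56) above CS. The 53 NEVLPcty cells of cluster 28 held 155 of the 360 counts, and within cluster 7 the levels were 34.8, 69.7, 107 and 109, so that the groups lay under 2-fold apart there. Hepatocyte markers made up 0.206% of the UMIs of NEVLP2 NK-like cells and 0.0516 to 0.0817% in the other libraries. Endothelial markers made up 0.000683, 0.0583, 0.0349 and 0.187% in naive, CS, NEVLP2 and NEVLPcty, with endothelial-like Ddit4 at 423 CPM in NEVLPcty; the part of either in the NK-like level was not tested. The log2 difference was 1.57, and 1.11 with doublets removed at a matched rate, which also took cells from NEVLPcty, where no doublet had been called.

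In the other 6 classes the groups overlapped or lay under 2-fold apart. Plasmacytoid dendritic-like cells had 106 CPM in naive and 159 in NEVLP2, but 506 in CS and 664 in NEVLPcty. T-like cells had 63 in naive and 259, 214 and 264 in CS, NEVLP2 and NEVLPcty, so the stored liver was at the level of the perfused ones. Monocyte or macrophage-like cells had 89.2 and 112 in the controls, 39.6 in NEVLP2 and 260 in NEVLPcty, so that the controls lay between the perfused libraries. In those 3 classes the CS liver lay above the naive one, by 1.25-fold (1.12 to 1.41) in monocyte or macrophage-like, 4.12-fold (3.45 to 4.92) in T-like and 4.78-fold (4.03 to 5.71) in plasmacytoid dendritic-like cells. It also lay above naive in each other compared class, from 1.63-fold (0.878 to 3.44) in Kupffer-like to 6.03-fold (2.84 to 14.3) in hepatocyte-like cells. The Kupffer-like and endothelial-like intervals took in 1.

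**Figure D3:**
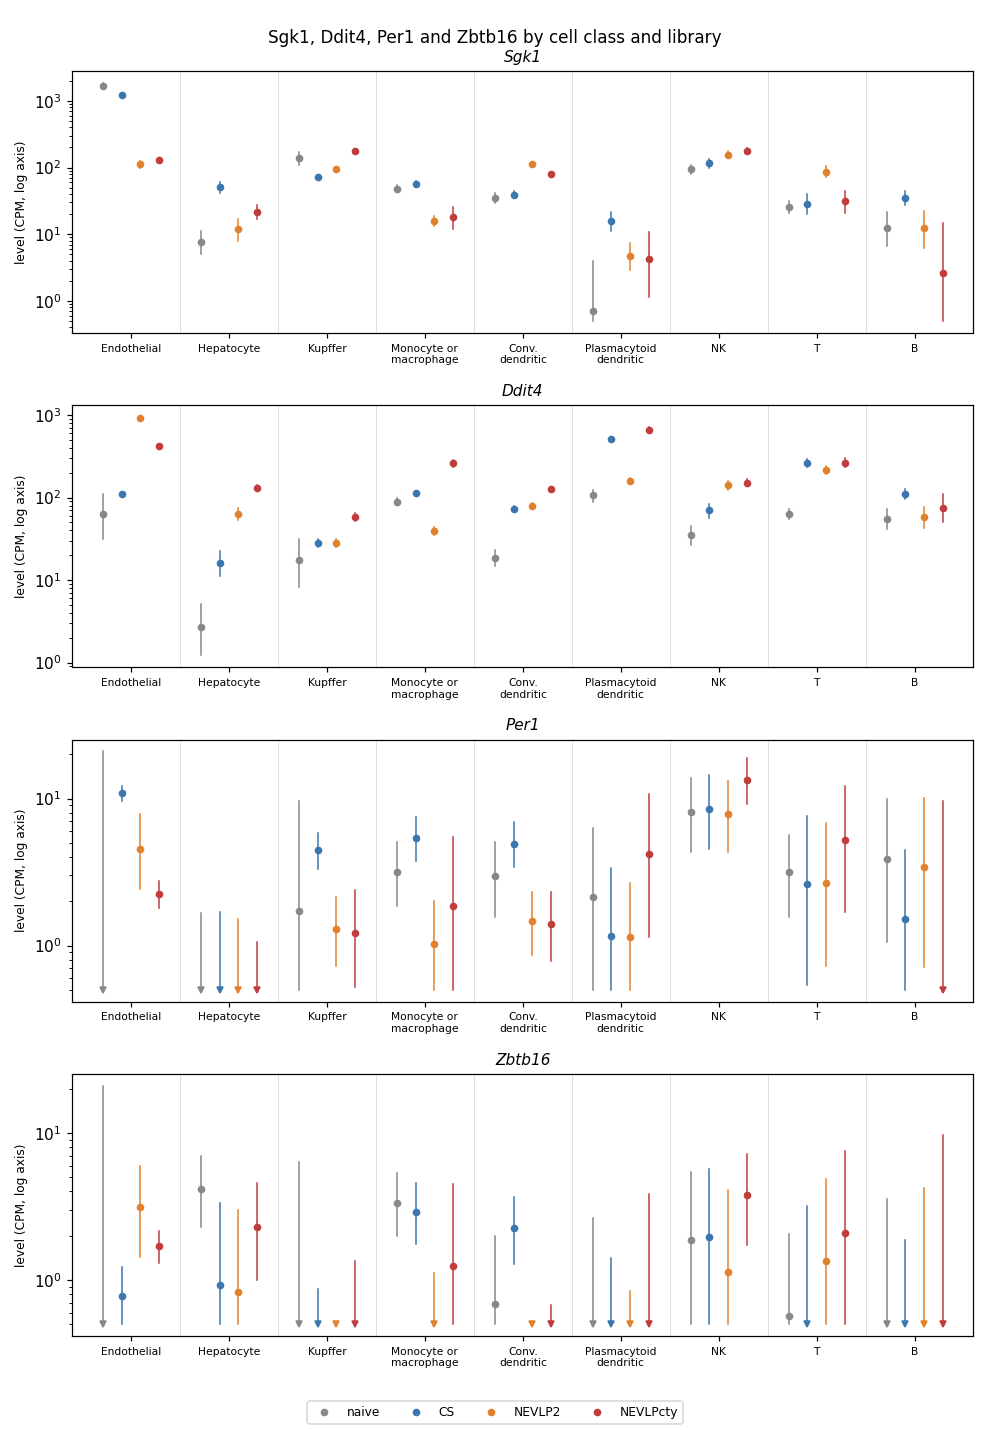
Levels of Sgk1, Ddit4, Per1 and Zbtb16 in CPM on log axes by cell class, with 1 point per library and 95% Poisson intervals as bars; triangles at the lower edge mark levels under 0.5 CPM. Sgk1 drops from 1670 and 1206 CPM in control to 112 and 130 in perfused endothelial-like cells, Ddit4 stands higher in perfused endothelial-like and hepatocyte-like cells, and the wide bars of Per1 and Zbtb16 show how few counts they had.

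Klf9 encodes a Krüppel-like zinc finger factor that is a direct receptor target in many cell types. It passed the rule only in endothelial-like cells, in the lower direction. The log2 difference of -1.99 was -0.80 with a mitochondrial maximum of 10% and -1.20 with median of ratios scaling. In the main analysis it was 294 CPM (220 to 386) in naive, 375 (368 to 383) in CS, 103 (92 to 116) in NEVLP2 and 67.8 (65.2 to 70.4) in NEVLPcty, and 29.6% of all genes in the class lay below its log2 difference of -1.99. The perfused clusters differed from each other more than the libraries did: cluster 8 had 133 and 206 CPM and cluster 0 had 22.1 and 44.8 in NEVLP2 and NEVLPcty. The 29 NEVLPcty cells in cluster 1 had 343 (252 to 456), level with the controls.

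Hepatocyte-like cells had 20.5 and 25.8 CPM of Klf9 in naive and CS against 44.6 and 50.4 in the perfused libraries, a gap of 1.72-fold at the nearest pair. Within cluster 3 the levels were 20.5, 25.9, 34.4 and 28.7, with overlapping intervals. Kupffer-like cells missed the rule in the other direction, at 34.6 and 37 CPM against 7.59 and 17.8. In T-like and NK-like cells NEVLP2 stood alone, at 20.8 and 41.1 CPM, while NEVLPcty had 72.7 and 96.9 and the controls 99.2 to 133. In B-like cells all 4 libraries lay between 59.7 and 81.4 CPM with overlapping intervals, in the same cells whose Tsc22d3 differed most.

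Per1 encodes a repressor of the circadian clock, and Zbtb16 a zinc finger factor best known from innate-like lymphocytes. Both were sparse, with 64, 458, 104 and 161 counts of Per1 and 45, 70, 25 and 104 of Zbtb16 in all retained naive, CS, NEVLP2 and NEVLPcty cells. Per1 reached 20 counts in 6 classes and Zbtb16 in 4. Each passed the rule as lower in conventional dendritic-like cells, Per1 with 13, 35, 18 and 15 counts and Zbtb16 with 3, 16, 1 and 2, too few for a fold. For Per1 the interval of the nearest pair, NEVLP2 below naive by 2.01-fold (0.907 to 4.35), takes in equal levels. In endothelial-like cells Per1 was 10.9 CPM in CS, 4.56 in NEVLP2 and 2.23 in NEVLPcty, while 0 counts in the 28 naive cells allow up to 17 CPM.

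The members did not vary together over the 42 sums of a class and a library (12 classes, log2 of CPM plus 10, centred within each class). Pearson's r between Klf9 and Tsc22d3 was 0.66, and Ddit4 had an r between -0.09 and 0.17 with each other member; the sums share libraries and depth, so these values only describe. The genes most like Tsc22d3 by the same measure were Slc50a1 (0.90), Ctps2 (0.89) and Fra10ac1 (0.89), and those most like Ddit4 were Ell (0.82), Xiap (0.82) and Pelo (0.80). For Sgk1 they were Klhl8 (0.78), Mid1 (0.76) and Mccc1 (0.75), for Klf9 Gstt2 (0.86), Mrps35 (0.85) and Mat2b (0.84), and for Fkbp5 Sh2b1 (0.67), Dab2ip (0.66) and Degs2 (0.66).

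Other genes of the hormone pathway were followed in lists. The receptor gene Nr3c1 was not analysed here. Of 11 features for receptor chaperones, cofactors and steroid access, at most 2 passed the rule in either direction in any class. Hsp90aa1, a chaperone of the unbound receptor, was higher in endothelial-like (175 and 211 CPM against 749 and 628) and in monocyte or macrophage-like cells. Hsd11b1, which regenerates active glucocorticoid from its inert keto form, was expressed most in hepatocyte-like cells, at 614, 953, 435 and 299 CPM. In monocyte or macrophage-like cells it was higher after perfusion, at 68, 36.2, 188 and 151 CPM. Hsd11b2, the inactivating enzyme, had under 20 counts in each class. Ncoa2, a receptor coactivator, was lower in 3 classes, and Abcb1a, a drug efflux pump that carries steroids, was lower in 2 and higher in 1.

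Among 31 other genes known to be induced by glucocorticoids the directions were mixed, and the count of higher genes ran from 0 in T-like and B-like cells to 9 of 26 in hepatocyte-like cells, where 13.9% of all genes were higher. Mt2A, a metallothionein, was higher in 6 of 9 classes, for instance 3.46 and 5.64 CPM against 45 and 30.6 in Kupffer-like cells. The naive value there lies under the level of 3 counts, 5.19 CPM. Cebpb, Nfkbia (the inhibitor of NF-kB) and Errfi1 were each higher in 4 classes. Dusp1, a phosphatase that dampens MAP kinases, was lower in 3: Kupffer-like (1634 and 1282 CPM against 459 and 580), monocyte or macrophage-like and B-like cells. Mertk, the receptor for apoptotic cells, was lower in Kupffer-like (175 and 151 against 29.6 and 30), monocyte or macrophage-like and conventional dendritic-like cells.

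Of the inflammatory genes that glucocorticoids are known to restrain, from 2 of 11 in Kupffer-like to 5 of 7 in NK-like cells were higher in perfused livers, and none was lower in any of the 9 classes. Their median log2 difference was between 2.22 and 3.77, against -1.20 to 0.41 over all genes. Ccl2 and Cxcl2, chemokines for monocytes and neutrophils, were higher in 8 of 9 classes, Cxcl1 and Icam1 in 7 and Il1b in 6. In Kupffer-like cells Cxcl2 was 1305 and 312 CPM in the controls and 3517 and 2704 in the perfused livers. In B-like cells Ccl2 stood at 2.91 and 5.57 CPM against 176 and 107. B cells are not a known main source of Ccl2, and endothelial-like cells of the same perfused livers had 8995 and 6636 CPM; how far free RNA enters the values of other classes was not tested.

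Genes of other stimuli to which Ddit4, Per1 and Sgk1 answer were counted in the same way. Of 8 integrated stress genes 4 were higher in hepatocyte-like cells, against 13.9% of all genes, and 3 in endothelial-like cells, against 3.33%. In NK-like cells 2 of 7 were higher, against 4.29%. In Kupffer-like and in monocyte or macrophage-like cells it was 2 of 8, against 3.36% and 3.96%. In conventional dendritic-like cells it was 1 of 8, against 3.57%. In T-like and in plasmacytoid dendritic-like cells it was 1 of 7, against 2.46% and 3.52%, and in B-like cells 0 of 6, against 2.44%. None was lower in any class. Trib3, induced by amino acid and endoplasmic reticulum stress, was higher in 8 of 9 classes, for instance 4.76 and 2.31 CPM against 64 and 129 in hepatocyte-like cells. Of the hypoxia list 5 of 10 genes were higher in hepatocyte-like and 1 of 12 in endothelial-like cells, against 13.9% and 3.33% of all genes. In monocyte or macrophage-like cells it was 5 of 12 (3.96%), and in conventional dendritic-like cells 4 of 10 (3.57%). In Kupffer-like and plasmacytoid dendritic-like cells it was 3 of 11 (3.36% and 3.52%). In NK-like, T-like and B-like cells it was 2 of 11, 2 of 9 and 2 of 8 (4.29%, 2.46% and 2.44%). Only in Kupffer-like cells was a gene of this list lower, 1 of 11, against 13.6% of all genes. Any link of these lists to Ddit4 was not tested. Slc2a1, a glucose transporter, and Adm, a vasodilator peptide, were each higher in 5 classes. Among cyclic AMP response genes Crem and Pde4d were higher in 5 classes and Fosb lower in 3. Among clock genes Cry1 was higher in 6 classes, whereas Nr1d1 and Dbp, targets of the clock with strong daily cycles, were each lower in 2. Immediate early genes were higher in at most 1 and lower in at most 2 members in a class, with Fos lower in Kupffer-like (1466 and 1485 CPM against 345 and 628) and monocyte or macrophage-like cells.

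**Figure D4:**
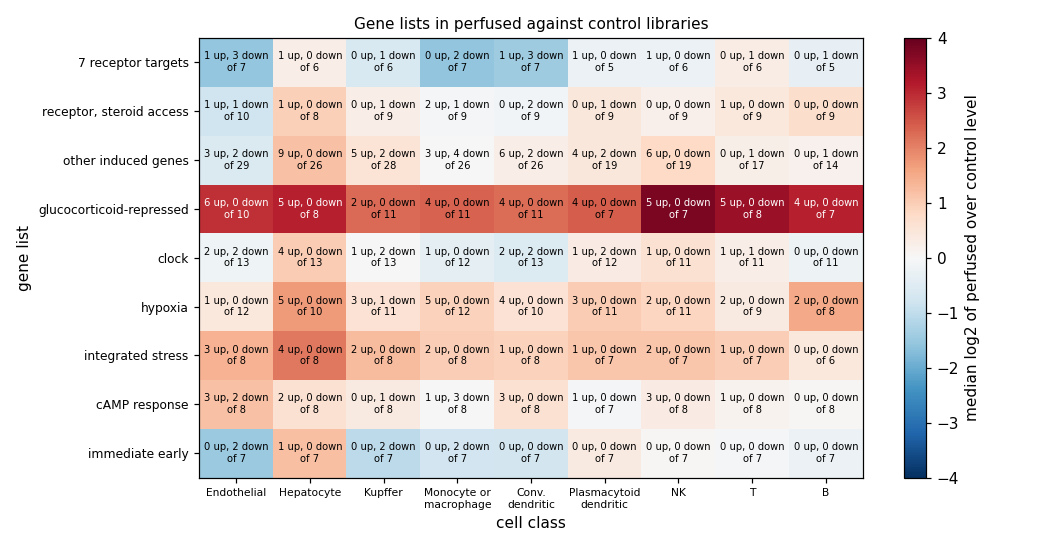
Rows are gene lists and columns cell classes; the colour is the median log2 of perfused over control level of the tested genes of a list, and the text counts genes past the 2-fold rule in each direction. The 7 receptor targets are pale or blue, while the list of genes that glucocorticoids restrain is red in every column, with medians of 2.22 to 3.77.

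Which calls depended on processing is shown by 19 other settings. Tsc22d3 remained lower in B-like, T-like and Kupffer-like cells in 19 of 19 settings and in monocyte or macrophage-like cells in 18 of 18 that measured the class. Ddit4 remained higher in hepatocyte-like cells in 19 of 19 and in endothelial-like cells in 18 of 18, and Sgk1 lower in endothelial-like cells in 18 of 18. Fkbp5 in plasmacytoid dendritic-like cells was kept in 17 of 18. The weakest was Ddit4 in NK-like cells, kept in 9 of 19, followed by Zbtb16 and Per1 in conventional dendritic-like cells, in 11 and 12 of 19.

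**Figure D5:**
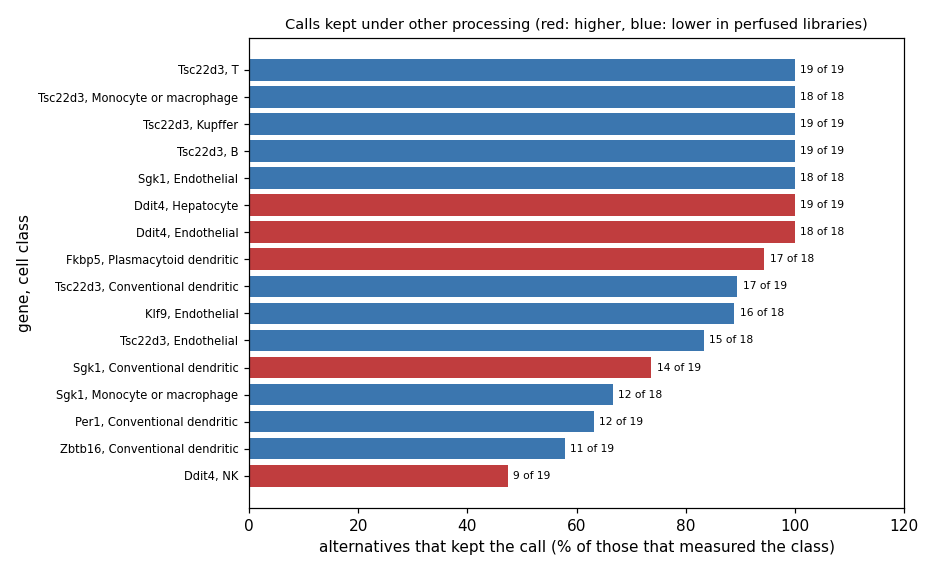
Bars give the percentage of the other settings that kept each of the 16 calls, among settings in which the class could be compared, with the counts beside them; red bars are higher and blue bars lower in perfused libraries. The bars run from 9 of 19 settings for Ddit4 in NK-like cells to all settings for Tsc22d3 in B-like cells. Settings that only loosen the rule or leave out a library can lose a call only through the count minimum.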

How the data were processed

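The deposited matrices hold UMI counts (unique molecular identifiers, 10x Genomics droplets) per gene and barcode as whole numbers that the authors made with Cell Ranger, version 6.0.0 per the file headers and 2.1.1 per the submitters' processing notes; no build is named there. Each matrix has 22250 features. Deposited barcodes numbered 3920, 11200, 10646 and 11763 in naive, CS, NEVLP2 and NEVLPcty, with 25609611, 67431270, 65893218 and 72271060 UMIs.

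Barcodes needed 200 genes and 500 UMIs or more, and a mitochondrial share of 20% or less. Scrublet (scanpy 1.11.5) called 3, 326, 208 and 0 doublets, so the NEVLPcty call did not work and doublets remain there; an alternative removed the highest scores at 0.8% per 1000 barcodes. Cells were scaled to 10000 counts and log transformed, and 2000 variable genes without any listed gene, 30 components, 15 neighbours and Leiden resolution 1 (leidenalg 0.10.2, no integration) gave 29 clusters, of which 7 stayed unnamed. A name needed a mean log2 fold of its markers of 0.5, at least 3 markers in over 10% of cells and no other list with more of the top 10 genes. Other tools were scipy 1.17.1, igraph 0.11.9, numpy 2.4.6, matplotlib 3.10.9, scikit-learn 1.9.0, pandas 2.3.3 and Python 3.11.15.

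Counts were summed per class and library. Intervals are exact at 95% (Poisson for a level, conditional binomial for a ratio) and cover counting error only; a level under 3 counts was set to 3 in ratios. The 2-fold rule was tested on simulated data. The rule for names took all 7 genes, from other lists at most 6 genes that passed in at least 2 classes, plus Hsd11b1, Hsd11b2 and Nr3c1 (the last not analysed here), and the 3 most similar genes of each member with a mean of at least 10 CPM; not all of those the rule allows are named. The members and lists were chosen with earlier results of these data known. The settings tried were 14 planned and 5 added after seeing the data.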

Additional observations from a re-analysis of the deposited data

Results flagged for a closer look

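Sgk1 went in opposite directions between cell classes under the same comparison. Its log2 difference of perfused over control libraries was 1.35 in conventional dendritic-like cells, where both perfused libraries lay above both controls. It was -3.56 in endothelial-like and -1.63 in monocyte or macrophage-like cells, where both lay below. With 1 library per group the difference between classes was not tested. Sgk1 in conventional dendritic-like cells was still counted as higher in 14 of 19 other settings and in monocyte or macrophage-like cells as lower in 12 of 18. These numbers take in the settings that only loosen the rule or leave out a library, which can hardly lose a call.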

How the results depend on the processing

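The main counts were 5 higher and 11 lower pairs of member and class, with Tsc22d3 lower in 6 classes and Ddit4 higher in 3. None of the 16 called differences changed sign under any of the 19 settings. With 1 library left out the sign could not change by construction. Of the values, 235 stayed within counting error of the main value, 62 moved further and 7 could not be measured. At 1.5-fold and without a count minimum the values are the main ones by construction, and they are among the 235. Higher pairs numbered 3 with doublets kept, 3 with classes by transcripts, 3 with the mean of per-cell CPM, 3 with totals without hepatocyte, mitochondrial, ribosomal protein and haemoglobin genes, and 2 with cells thinned to 1000 UMIs. With each library clustered alone, which left 6 classes, there were 2 higher and 5 lower pairs, and Ddit4 was higher in 1 class. Lower pairs numbered 5 with median of ratios scaling and 17 at 1.5-fold.

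Median of ratios scaling moved the median of all genes from -1.20 to -0.41 in endothelial-like, from -0.48 to 0.04 in conventional dendritic-like, from -0.47 to -0.09 in Kupffer-like, from -0.53 to -0.03 in monocyte or macrophage-like and from 0.41 to -0.01 in hepatocyte-like cells. Thinning to 1000 UMIs moved it to -1.65 in endothelial-like and -0.85 in Kupffer-like cells.

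Ddit4 in hepatocyte-like cells had a log2 difference of 2.49 with CS and 5.08 with naive as the only control, and Tsc22d3 in B-like cells -4.94 with NEVLP2 and -3.54 with NEVLPcty as the only perfused library. Zbtb16 in conventional dendritic-like cells went from -2.24 to between -3.11 and -0.40. Median of ratios scaling gave Ddit4 3.69 and Sgk1 -2.77 in endothelial-like cells.

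Leaving out 1 library loosens the rule. The called pairs then keep their sign by construction, and the counts can rise for that reason alone. Without naive (CS as the only control) there were 7 higher and 18 lower pairs. Without CS there were 8 higher and 11 lower, and Ddit4 was higher in 5 classes. Without NEVLPcty there were 6 higher and 22 lower, and without NEVLP2 8 higher and 11 lower, with Ddit4 again higher in 5 classes. All genes moved too, from 4.41% higher and 10.9% lower to 7.4% and 20.5% without NEVLPcty. No paired analysis was possible because each group has 1 library. Depth limits Per1 and Zbtb16 and the naive endothelial-like, NEVLPcty B-like and naive Kupffer-like values.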

Other observations

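Cells outside the 9 compared classes gave further values. Cells left without a name made up 18.3, 24.9, 49.2 and 9.08% of the naive, CS, NEVLP2 and NEVLPcty libraries, so that much of NEVLP2 is in no comparison. Their largest clusters were 4 in naive, 4 and 11 in CS, 2 and 5 in NEVLP2 and 2 and 4 in NEVLPcty. Differences between the libraries in these cells are therefore also ones between clusters. The unnamed cells had 30, 1038, 720 and 206 counts of Tsc22d3, or 29.4, 220, 44.6 and 50.2 CPM in naive, CS, NEVLP2 and NEVLPcty. They had 144, 296, 882 and 376 CPM of Ddit4. Their Fkbp5 level was 3.92, 15.7, 25.9 and 23.2 CPM, higher in both perfused libraries than in either control, by 1.65-fold (1.28 to 2.14) and 1.47-fold (1.08 to 2.03) over CS, while naive held only 4 counts. Their Sgk1 level was 17.6, 391, 130 and 108 CPM and their Klf9 level 23.5, 252, 47.7 and 84.1 CPM, both highest in CS. Stellate or fibroblast-like cells, of which the naive and CS libraries had 4 and 0, had 614 CPM of Ddit4 in NEVLP2 and 188 in NEVLPcty, and 27.8 and 49.3 CPM of Fkbp5. In neutrophil-like cells Sgk1 was 152 CPM in naive and 57.7 in NEVLP2.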
